A study of Mus musculus with 7 samples.

Results

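The genes examined make up the CXCR3 and CXCR6 chemokine axes, in which lymphocytes are drawn into inflamed tissue. They were chosen by symbol, as 4 ligand genes (Cxcl9, Cxcl10, Cxcl11 and Cxcl16) and 2 receptor genes (Cxcr3 and Cxcr6). All 6 were found among the 28233 genes of the expression table, and all 6 had a mean of at least 1 TPM (a transcript level scaled for length and for the total of the tumour) over the 7 tumours, so that all entered the test. Cxcr6 reached that mean through the Cr1l tumours, since its mean in the Vec tumours was 0.633 TPM.

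The tumours came from B16mhgp100, a subline of the mouse B16 melanoma, implanted under the skin of C57BL/6 mice. In 4 of them, called Cr1l 1 to Cr1l 4, the melanoma cells over-expressed Cr1l, which encodes the complement regulator Crry, and in the other 3, called Vec 5 to Vec 7, they carried the vector. Mice of both groups were treated with anti-PD1, an antibody that blocks an inhibitory receptor of T cells. It was given at 200 µg per dose from day 10, 2 times per week for 4 doses, and tumours were harvested 1 day after the last dose. Every tumour of both groups received the antibody. The sources used here do not give the vector's promoter, whether the lines were clones, or the age of the mice. Labels spell the line B16mhgp100 in one field and B16mghp100 in another. Values below are given in the order Cr1l 1, 2, 3 and 4, against Vec 5, 6 and 7. Nothing in the labels says that the 7 tumours came from separate mice, so p-values measure the spread between these samples.

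CXCR3 is a receptor of activated T cells and NK cells and is also found on some plasma cells. Its ligands CXCL9, CXCL10 and CXCL11 are induced by interferons, CXCL9 mainly by interferon gamma, in macrophages, dendritic cells, endothelium and tumour cells. CXCL16 is made as a membrane protein of macrophages and dendritic cells and can be shed by the proteases ADAM10 and ADAM17. Its receptor CXCR6 marks effector and tissue-resident T cells and NKT cells. In C57BL/6 mice the Cxcl11 gene carries a frameshift and gives no functional chemokine, and RefSeq lists it as a transcribed pseudogene in its GRCm38.p6 annotation.

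The stretches around the start sites of the ligand genes that make functional CXCR3 ligands are shown first, because both genes are classed as interferon-induced and yet differed between tumours in different ways. RefSeq's promoter table (build GRCm38.p6, older than the mm39 build named in the submitters' processing notes) matched 4 of the 6 genes. Each entry runs from 250 bases before the start to 50 bases after it, 300 in all. Cxcl9 lies at chr5:92328030-92328329 and Cxcl10 at chr5:92348840-92349139, both on the minus strand. Capitals mark matches, on either strand, to GAAANNGAA (the core of the interferon-stimulated response element), TTCNNNGAA (the gamma-activated site) or GGANNTTCC (a form of the NF-kB site).
Cxcl9: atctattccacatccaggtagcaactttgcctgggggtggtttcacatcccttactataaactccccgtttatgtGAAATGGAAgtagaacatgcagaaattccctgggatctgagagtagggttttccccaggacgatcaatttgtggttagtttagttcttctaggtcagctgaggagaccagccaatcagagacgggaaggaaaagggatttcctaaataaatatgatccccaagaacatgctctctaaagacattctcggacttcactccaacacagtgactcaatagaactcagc
Cxcl10: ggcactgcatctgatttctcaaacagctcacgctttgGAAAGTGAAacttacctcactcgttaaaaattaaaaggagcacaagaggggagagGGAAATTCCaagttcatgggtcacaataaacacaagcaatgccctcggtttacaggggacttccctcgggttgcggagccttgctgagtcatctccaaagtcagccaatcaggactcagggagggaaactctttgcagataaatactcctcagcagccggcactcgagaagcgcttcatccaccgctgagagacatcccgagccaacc
GAAANNGAA was found as GAAATGGAA at -175 to -167 from the start of Cxcl9 and as GAAAGTGAA at -213 to -205 of Cxcl10. It stood in 8.56% of all 32851 promoters of the table. GGANNTTCC was found as GGAAATTCC at -158 to -150 of Cxcl10 and in 4.26% of all promoters. Other forms of the NF-kB site were not searched, so the lack of a match in Cxcl9 does not show that it has no such site. TTCNNNGAA, present in 8.3% of all promoters, had no match in these windows.

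The starts of the receptor genes are shown because Cxcr3 and Cxcr6 had the smallest difference of profiles, not scaled to spread, of any pair among the 6 genes. Cxcr3 lies at chrX:101734098-101734397 on the minus strand and Cxcr6 at chr9:123806227-123806526 on the plus strand. Capitals mark matches on either strand to TCACAC, the core bound by T-box factors such as T-bet, and ACCACA, the core bound by RUNX factors. These short motifs were chosen after the sequences had been seen.
Cxcr3: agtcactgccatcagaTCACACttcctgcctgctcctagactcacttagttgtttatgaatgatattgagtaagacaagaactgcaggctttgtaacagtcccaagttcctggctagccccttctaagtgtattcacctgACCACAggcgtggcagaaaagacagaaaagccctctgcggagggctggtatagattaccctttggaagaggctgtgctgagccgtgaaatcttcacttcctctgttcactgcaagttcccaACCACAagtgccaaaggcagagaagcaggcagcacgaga
Cxcr6: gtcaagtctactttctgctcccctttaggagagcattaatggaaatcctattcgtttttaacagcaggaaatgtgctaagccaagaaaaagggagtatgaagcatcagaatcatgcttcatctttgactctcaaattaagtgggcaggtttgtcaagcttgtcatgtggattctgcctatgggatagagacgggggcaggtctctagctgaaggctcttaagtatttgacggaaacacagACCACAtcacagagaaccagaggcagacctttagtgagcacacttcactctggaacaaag
ACCACA was found at -110 to -105 and at 12 to 17 of Cxcr3 and at -10 to -5 of Cxcr6. It stood in 16.8% of all promoters, and its reverse complement also lies at -106 to -101 of Cxcl9. TCACAC was found at -234 to -229 of Cxcr3 and in 14.5% of all promoters. A match describes the letters and shows no binding.

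Both receptor genes stood higher in every Cr1l tumour than in any Vec tumour, and the ligands did not follow one pattern. Cxcl11 stood lower in every Cr1l tumour, Cxcl10 was lower on average with groups that overlapped, and Cxcl9 and Cxcl16 overlapped widely between the groups. At an adjusted p under 0.05 by limma, fitted over 14954 genes on log2(TPM + 1), none of the 6 genes passed. The background was 0% of genes called higher and 0.0134% called lower. At an unadjusted p under 0.05 by limma Cxcr3 was higher and Cxcl11 lower, where 9.49% of all genes were higher and 6.07% lower. Groups without overlap were seen for 2 genes higher (Cxcr3 and Cxcr6) and 1 lower (Cxcl11), where 9.29% of all genes were higher and 6.67% lower without overlap. Of these, Cxcr6 passed the filter only through the Cr1l tumours, so only Cxcr3 can be set beside the share of higher genes. A DESeq2 test in the authors' deposited table called Cxcr3, Cxcr6 and Cxcl11, where 4.74% of its genes were called higher and 2.27% lower. These shares show that many genes separate the groups in the same tumours.

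**Figure D1:**
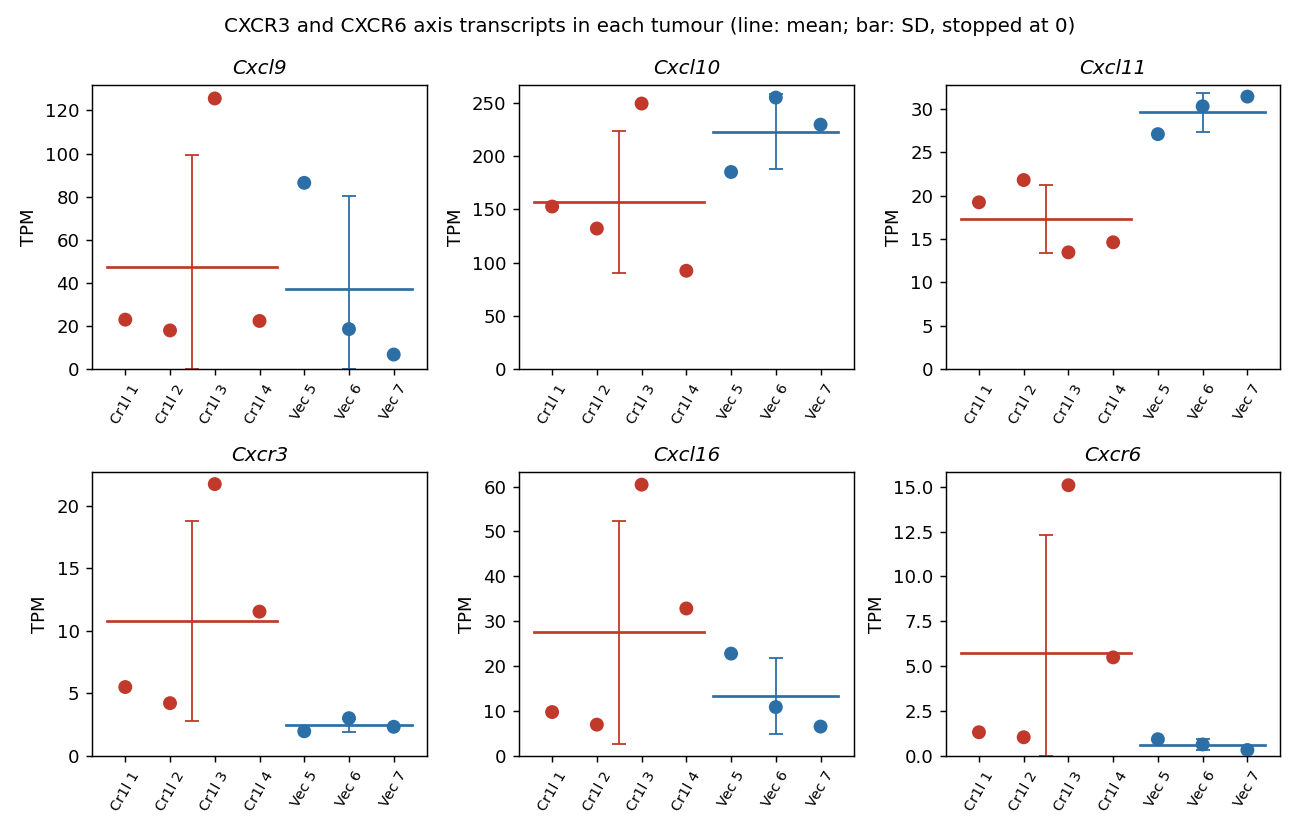
Level of each of the 6 genes in TPM (vertical axis, from 0) in each of the 7 tumours (points, red for Cr1l and blue for Vec), with the group mean as a line and the SD as a bar stopped at 0. Cxcl11 is lower and Cxcr3 and Cxcr6 are higher in all 4 Cr1l tumours than in the 3 Vec tumours, and Cr1l 3 is the highest tumour for Cxcl9, Cxcr3, Cxcl16 and Cxcr6.

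Cxcr3 stood at 5.51, 4.22, 21.74 and 11.54 TPM against 1.97, 3.02 and 2.33 TPM. Cr1l 3 and Cr1l 4 were the highest, and the lowest Cr1l tumour, Cr1l 2, still lay above the highest Vec tumour, Vec 6. Cr1l tumours averaged 10.8 ± 7.99 TPM (SD, n = 4) and Vec tumours 2.44 ± 0.534 TPM (SD, n = 3). Differences are Cr1l minus Vec in log2(TPM + 1), a scale on which low genes change by less than in TPM; here it was 1.54 (SE 0.49, 95% interval 0.40 to 2.68, unadjusted p = 0.0143 and adjusted p = 0.244 by limma). The exact permutation test over the 35 splits gave a two-sided p of 0.0571, where the smallest possible is 0.0286. The level per tumour differed by 5.15-fold within the Cr1l group and by 1.53-fold within the Vec group. Without Cr1l 3 and Cr1l 4 together, a setting added after seeing the data with no filter on low values, the difference was 0.77 (adjusted p = 0.518 by limma). For Cxcr3 the authors' deposited table lists 2.08 (log2, SE 0.59) with an adjusted p of 0.0138.

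Cxcr6 had the widest range of the 6 genes, 45.7-fold between its lowest and highest tumour. The lowest, Vec 7, was at 0.33 TPM, where a small change in TPM moves the fold strongly. Cxcr6 levels were 1.32, 1.04, 15.08 and 5.49 TPM against 0.93, 0.64 and 0.33 TPM. The gap between the groups was narrow, since Cr1l 2 and Vec 5 were nearly level, and Cr1l 3 and Cr1l 4 lay far above the rest. Cr1l tumours averaged 5.73 ± 6.56 TPM (SD, n = 4) and Vec tumours 0.633 ± 0.300 TPM (SD, n = 3). The log2 difference was 1.55 (SE 0.70, 95% interval -0.08 to 3.17, adjusted p = 0.334 by limma; exact permutation p = 0.143). It was 0.96 without Cr1l 3 and 0.43 without Cr1l 3 and Cr1l 4 together. For Cxcr6 the authors' deposited table lists 3.15 (log2, SE 0.89) with an adjusted p of 0.0121. The gene overlaps Fyco1 in RefSeq, and the libraries do not keep strand, so reads of the overlap cannot be assigned by strand. Fyco1 stood at 8.15, 8.24, 9.25 and 8.70 TPM against 7.81, 6.63 and 6.14 TPM, higher in every Cr1l tumour as Cxcr6 was, and its part in the Cxcr6 values was not tested.

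The gap between the receptors within a tumour overlapped between the groups. Cxcr6 lay below Cxcr3 in all 7 tumours, by 1.49, 1.36, 0.50 and 0.95 on the log2(TPM + 1) scale in Cr1l 1 to Cr1l 4 and by 0.62, 1.29 and 1.32 in Vec 5 to Vec 7. The group means differed by 0.01, which is smaller than the SD of 0.45 and 0.40 within the groups (exact permutation p = 1, adjusted over 8 within-tumour differences 1), and 3 to 4 tumours a group do not show that the gap is alike. With a pseudocount of 0.1 TPM the same difference was 0.49. Among the 18 chemokine receptor genes of the table Cxcr3 ranked as number 5 by mean TPM in both groups. Cxcr6 ranked as number 7 in the Cr1l group and number 10 in the Vec group.

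Since bulk RNA cannot tell fewer cells of a type from less RNA per cell, the receptors were set beside a list of 14 T cell genes. The list mean on the log2(TPM + 1) scale was 1.86, 1.41, 4.55 and 3.14 against 2.42, 2.40 and 1.51, so the groups overlapped. All 14 were tested and had positive differences, with a median of 0.53, none passing adjusted or unadjusted by limma and none without overlap. Over all tested genes 55.4% were positive and the median was 0.05. Summed over the list, the level was 27.8 to 369 TPM in the Cr1l group and 31.3 to 73.3 TPM in the Vec group. Cd4, the coreceptor of helper T cells, stood at 1.43, 1.80, 18.02 and 5.91 TPM against 1.59, 1.52 and 0.33 TPM. Lck, the kinase of the T cell receptor complex, stood at 17.7 ± 12.8 TPM (SD, n = 4) against 8.68 ± 3.45 TPM (SD, n = 3). The number of T cell receptor beta clones in the authors' repertoire table, not scaled to depth, was 19, 28, 274 and 81 against 35, 25 and 17. Alpha clones numbered 20, 10, 199 and 46 against 25, 13 and 5. Cr1l 1 and Cr1l 2 thus had more Cxcr3 than Vec 5 and Vec 6 at a lower T cell list mean, whereas Vec 7, at a list mean of 1.51, lay between Cr1l 1 and Cr1l 2 on the list and below both for Cxcr3.

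Relative to the T cell list, Cxcr6 separated the groups. The gene lay below the list mean by 0.65, 0.38, 0.54 and 0.44 on the log2(TPM + 1) scale in Cr1l 1 to Cr1l 4 and by 1.47, 1.69 and 1.10 in Vec 5 to Vec 7. The 4 Cr1l tumours fell close together, with an SD of 0.12, although their T cell list means spread widely. The groups differed by 0.92 (exact permutation p = 0.0286, the smallest possible, and 0.229 adjusted over the 8 within-tumour differences, so the correction was not passed). Cxcr3 relative to the same list stood at 0.84, 0.97, -0.04 and 0.51 against -0.85, -0.39 and 0.22. The groups overlapped through Cr1l 3 and Vec 7, and the difference of 0.91 had an exact permutation p of 0.0857 (adjusted 0.343). With a pseudocount of 0.1 TPM in place of 1 TPM the differences were 1.62 for Cxcr6, with no overlap, and 1.13 for Cxcr3, with overlap.

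**Figure D2:**
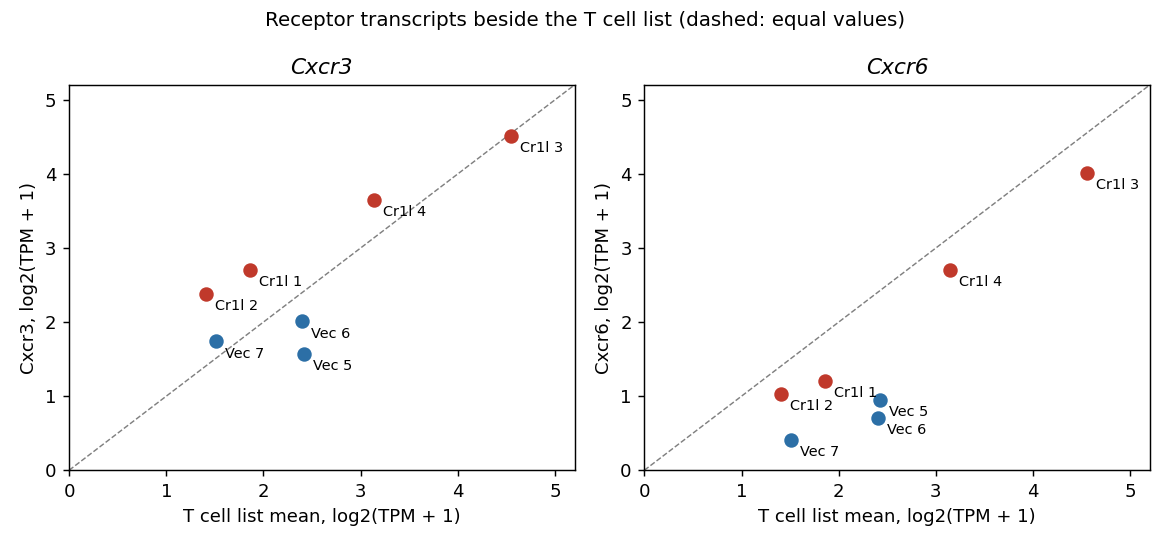
Cxcr3 (left) and Cxcr6 (right) on the log2(TPM + 1) scale (vertical axis) against the mean of the 14 T cell genes on the same scale (horizontal axis), 1 point per tumour, red for Cr1l and blue for Vec, with a dashed line where both are equal. Cr1l 1 and Cr1l 2 have T cell means of 1.86 and 1.41, no higher than those of Vec 5 and Vec 6, and lie above the Vec tumours for both receptors.

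Other lymphocyte genes were described from lists chosen with earlier results of these data known. Of 12 NK and cytotoxic genes all were tested and positive, with a median difference of 0.93 and none called. Of these, 4 (Ncr1, Klrb1c, Gzmk and Eomes) had a Vec mean under 1 TPM and so passed the filter only through the Cr1l tumours, which fixes their sign. They include all 3 without overlap (Ncr1, Klrb1c and Eomes), and the 8 others were positive with overlap. Ncr1, which encodes the NK cell receptor NKp46, stood at 0.81, 0.21, 7.00 and 4.88 TPM against 0.00, 0.00 and 0.11 TPM (adjusted p = 0.31 by limma). The summed level of that list was 46.2 to 461 TPM in the Cr1l group and 58.7 to 103 TPM in the Vec group. With this list in place of the T cell list, an alternative added after seeing the data, Cxcr6 was higher by 0.61 (exact permutation p = 0.0286) and Cxcr3 by 0.60 (exact permutation p = 0.0857), both without overlap between groups. Of 14 genes of the type 1 and tissue-resident programme 12 were tested and none was called. Tbx21, Ifng and Itgae passed the filter only through the Cr1l tumours, and of the other 9 genes 7 were positive. Tbx21, which encodes T-bet, an activator of Cxcr3, stood at 0.47, 0.61, 5.61 and 1.88 TPM against 0.29, 0.22 and 0.09 TPM, again without overlap. Ifng, the interferon gamma gene, stood at 1.41, 0.81, 6.48 and 2.40 TPM against 0.43, 1.19 and 0.07 TPM, and Cr1l 2 lay below Vec 6 there. B and plasma cell markers summed to 11.1 to 90.2 TPM in the Cr1l group and 2.24 to 3.14 TPM in the Vec group, with 3 of 6 tested, of which Jchain and Mzb1 passed only through the Cr1l tumours. Their part in the receptor values was not tested.

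Cxcl10, the ligand with the highest level, stood at 152.68, 132.01, 249.33 and 92.37 TPM against 185.08, 254.94 and 229.54 TPM. Cr1l 1, Cr1l 2 and Cr1l 4 lay below all Vec tumours, and Cr1l 3 lay among them. Group means were 157 ± 66.7 TPM (SD, n = 4) for Cr1l and 223 ± 35.4 TPM (SD, n = 3) for Vec, and the log2 difference was -0.59 (SE 0.31, 95% interval -1.30 to 0.12, adjusted p = 0.38 by limma; exact permutation p = 0.171). Without Cr1l 3 the groups did not overlap and the difference was -0.84 (adjusted p = 0.252 by limma), and without Cr1l 4 it was -0.37. In the authors' deposited table the log2 fold change of Cxcl10 was -0.58 (adjusted p = 0.359). Among the 37 chemokine genes of the table it ranked as number 5 in the Cr1l group and number 2 in the Vec group by mean TPM.

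Cxcl11 stood at 19.24, 21.81, 13.47 and 14.63 TPM against 27.10, 30.31 and 31.43 TPM. Its order was the reverse of that of the receptors within the Cr1l group: Cr1l 3 and Cr1l 4, highest for Cxcr3 and Cxcr6, were lowest for Cxcl11. Cr1l tumours averaged 17.3 ± 3.91 TPM (SD, n = 4) and Vec tumours 29.6 ± 2.25 TPM (SD, n = 3). The log2 difference was -0.77 (SE 0.19, 95% interval -1.21 to -0.32, unadjusted p = 0.00426 and adjusted p = 0.194 by limma; exact permutation p = 0.0571). The authors' deposited table called it lower, at -0.85 (log2, SE 0.24) with an adjusted p of 0.011. Without Cr1l 3 and Cr1l 4 together the difference was -0.51. In RefSeq Cxcl10 and Cxcl11 both overlap Art3, which encodes an ADP-ribosyltransferase family member. Art3 stood at 39.09, 30.44, 30.95 and 20.44 TPM against 44.32, 50.91 and 51.22 TPM, lower in every Cr1l tumour. Without strand, reads shared with Art3 cannot be told apart, and its part in the Cxcl10 and Cxcl11 values was not tested.

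Cxcl9 varied 18.5-fold over the tumours and did not sort by group. It stood at 22.98, 17.97, 125.58 and 22.37 TPM against 86.44, 18.60 and 6.79 TPM. Cr1l 3 and Vec 5 were far above the others, 1 in each group. Group means were 47.2 ± 52.3 TPM (SD, n = 4) for Cr1l and 37.3 ± 43.0 TPM (SD, n = 3) for Vec, and the log2 difference was 0.52 (SE 0.91, 95% interval -1.59 to 2.64, adjusted p = 0.792 by limma; exact permutation p = 0.686). The sign turned without Cr1l 3 (-0.11), without Vec 7 (-0.28), without Cr1l 3 and Cr1l 4 together (-0.15) and without Vec 6 and Vec 7 together (-1.36). The interval is wide, so the data neither show a difference nor show that the groups are alike. The authors' deposited table gave Cxcl9 0.36 (SE 1.09, adjusted p = 0.887).

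Cxcl9 lay below Cxcl10 in all 7 tumours, by 0.98 to 2.81 on the log2(TPM + 1) scale in the Cr1l group and by 1.09, 3.71 and 4.89 in Vec 5 to Vec 7. The group difference of 1.11 was within the spread (exact permutation p = 0.371, adjusted 0.594). Of the summed TPM of Cxcl9, Cxcl10 and Cxcl11, Cxcl9 took 11.8%, 10.5%, 32.3% and 17.3% against 28.9%, 6.12% and 2.54%. Cxcl10 took 64.2% to 78.3% in the Cr1l tumours and 62% to 85.7% in the Vec tumours. The sum of Cxcl9 and Cxcl10, the pair with functional products in this strain, was 176, 150, 375 and 115 TPM against 272, 274 and 236 TPM. Thus 3 of the 4 Cr1l tumours had a lower sum of these ligands than any Vec tumour while having more Cxcr3.

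**Figure D3:**
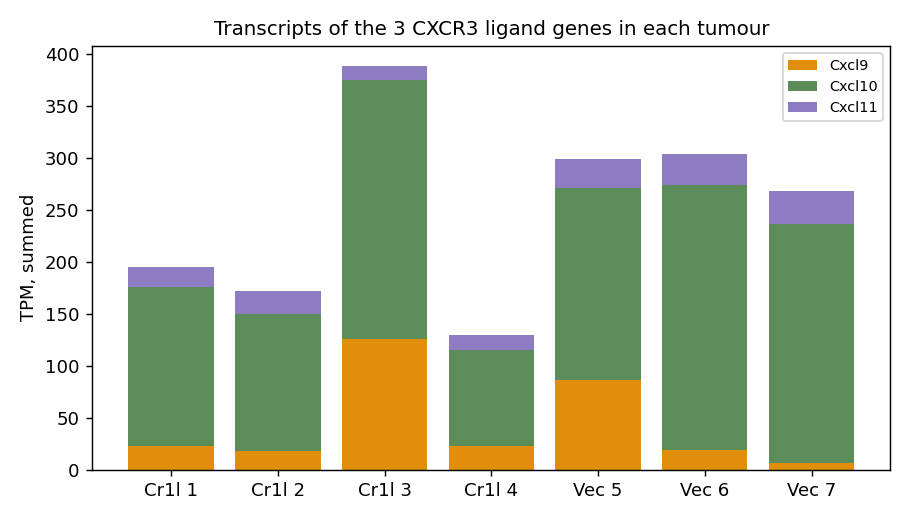
Summed TPM (vertical axis, from 0) of Cxcl9, Cxcl10 and Cxcl11 as stacked bars for each of the 7 tumours. Cxcl10 takes the greater part of every bar, and the Cxcl9 part is widest in Cr1l 3 (32.3%) and Vec 5 (28.9%).

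Cxcl16 stood at 9.77, 6.97, 60.43 and 32.84 TPM against 22.79, 10.88 and 6.54 TPM. Cr1l 3 and Cr1l 4 lay above all Vec tumours, and Cr1l 1 and Cr1l 2 lay below Vec 5 and Vec 6. Group means were 27.5 ± 24.8 TPM (SD, n = 4) for Cr1l and 13.4 ± 8.41 TPM (SD, n = 3) for Vec, and the log2 difference was 0.68 (SE 0.74, 95% interval -1.04 to 2.39, adjusted p = 0.659 by limma; exact permutation p = 0.514). It turned to -0.47 without Cr1l 3 and Cr1l 4 together and to -0.21 without Vec 6 and Vec 7 together. The authors' deposited table lists 1.03 (log2, SE 0.71) with an adjusted p of 0.417. Zmynd15 overlaps it in RefSeq, and that gene stood at 1.13, 0.97, 7.11 and 3.46 TPM against 3.38, 1.49 and 0.66 TPM. The 7 tumours fall in the same order for both genes, and the part of Zmynd15 in the Cxcl16 values was not tested.

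The macrophage list of 12 genes had log2 means of 4.82, 5.42, 7.86 and 7.64 against 6.27, 5.13 and 4.35. Its summed level was 596 to 5824 TPM against 507 to 1599 TPM, with 11 of 12 genes positive, none called and none without overlap. Relative to that list Cxcl16 had the smallest spread in the Vec tumours among the 3 ligands compared, at -1.69, -1.56 and -1.43, and stood at -1.39, -2.43, -1.92 and -2.56 in the Cr1l tumours (difference -0.51, exact permutation p = 0.2, adjusted 0.4). Cxcl10 relative to the list stood at 2.45, 1.63, 0.10 and -1.10 against 1.27, 2.87 and 3.50 (difference -1.78, exact permutation p = 0.171, adjusted 0.4). Cxcl9 relative to the list differed by -0.67 (exact permutation p = 0.486, adjusted 0.648), with the lowest tumour, Cr1l 4, at -3.09. Dendritic cell genes, of which 9 of 10 were tested, summed to 68 to 276 TPM against 33.1 to 83.3 TPM. Much of that sum was Fscn1 alone, at 54.00, 66.02, 138.39 and 90.47 TPM against 55.39, 44.20 and 21.48 TPM. Flt3, Clec9a, Cd209a and Il12b passed the filter only through the Cr1l tumours, and the other 5 were positive. Clec9a, a marker of cross-presenting dendritic cells, stood at 0.46, 1.64, 6.78 and 6.54 TPM against 0.39, 0.16 and 0.16 TPM.

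**Figure D4:**
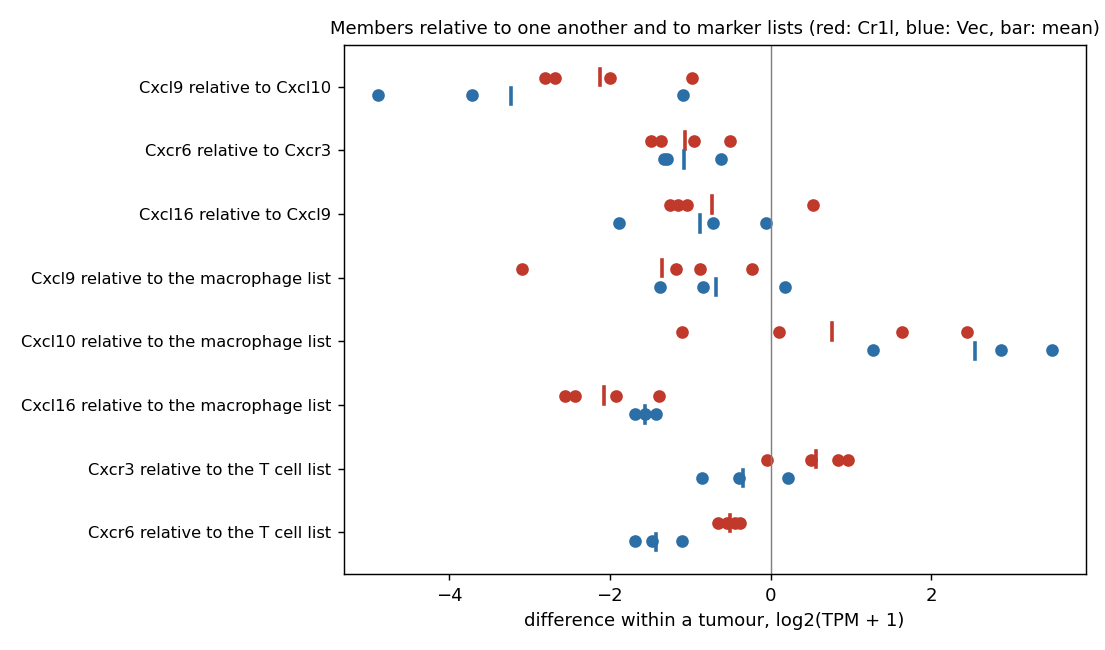
Differences within a tumour on the log2(TPM + 1) scale (horizontal axis) for 8 pairs of a gene and another gene or marker list, 1 point per tumour, red for Cr1l and blue for Vec, with the group mean as a bar. Cxcr6 relative to the T cell list is the pair in which no Cr1l point (-0.65 to -0.38) overlaps a Vec point (-1.69 to -1.10).

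Genes acting upstream of the interferon-induced ligands were mostly positive without passing the test. Of 20 genes of interferon and NF-kB signalling all were tested, 18 positive and 2 negative, with a median of 0.47 and none called. In 3 the groups were higher without overlap, where 9.29% of all genes were. Ifng and Tnf passed the filter only through the Cr1l tumours. Of the other 18 genes 16 were positive, where 55.4% of all genes were. Irf9, the DNA-binding part of the factor that reads the interferon-stimulated response element, stood at 49.23, 48.13, 58.68 and 48.52 TPM against 30.56, 32.99 and 36.53 TPM (log2 difference 0.60, adjusted p = 0.159 by limma). Socs1, a feedback inhibitor of interferon receptor signalling, stood at 4.39, 4.16, 16.37 and 6.20 TPM against 2.29, 1.63 and 1.86 TPM (1.40, adjusted p = 0.238 by limma). In both, every Cr1l tumour lay above every Vec tumour, the opposite of Cxcl11. Other interferon gamma-induced genes showed no common direction: of 18 tested 10 were positive and 8 negative, with a median of 0.13 and none without overlap. Ido1, a negative one, passed the filter only through the Vec tumours, and of the other 17 genes 10 were positive. Psmb8, a subunit of the immunoproteasome, stood at 335 ± 133 TPM (SD, n = 4) against 503 ± 69.5 TPM (SD, n = 3), and Tap1, the peptide transporter of antigen presentation, at 154 ± 64.8 TPM (SD, n = 4) against 210 ± 21.3 TPM (SD, n = 3).

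A list of 12 genes was drawn up for ligand cleavage, trimming and scavenging, and also holds heparan sulfate genes (Sdc1, Sdc4 and Ext1). The 10 tested were all positive, with a median of 0.73 and none called, where 55.4% of all genes were positive. The untested genes, Ackr2 and Ackr4, averaged lower in the Cr1l group, with overlap. Ackr2 stood at 0.633 against 0.747 TPM and Ackr4 at 0.378 against 0.863 TPM. Dpp4 passed the filter only through the Cr1l tumours. The other 9 tested were positive, and in 3 the groups were higher without overlap, against 9.29% of all genes. Adam17, a sheddase of CXCL16, stood at 36.41, 40.92, 45.62 and 41.52 TPM against 34.92, 25.95 and 24.54 TPM (log2 difference 0.53, adjusted p = 0.238 by limma). Mmp9, a gelatinase, stood at 3.13, 7.23, 11.57 and 11.57 TPM against 2.40, 2.64 and 0.77 TPM (1.61, adjusted p = 0.225 by limma). Dpp4, the peptidase that trims CXCL10, stood at 0.75, 1.79, 9.15 and 16.08 TPM against 1.14, 0.89 and 0.16 TPM, with groups that overlapped. Of 16 genes of signalling downstream of chemokine receptors 14 were positive and 2 negative, with a median of 0.44 and none called. Arrb1, an arrestin that ends receptor signalling, stood at 10.34, 5.73, 32.36 and 32.61 TPM against 6.52, 5.97 and 1.64 TPM.

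Within the chemokine family Cxcl11 and Cxcl10 were among the genes of negative sign. Of the 32 chemokine genes tested 25 were positive and 7 negative, with a median of 1.18. Without overlap 7 were higher and 2 lower. Of the 32, 5 passed the filter only through the Cr1l tumours and Ccl21a only through the Vec tumours, which fixes their sign. Among the other 26, 20 were positive and 5 higher without overlap, where over all genes 55.4% and 9.29% were. Cxcl11 alone of the 26 was lower without overlap, where 6.67% of all genes were, so the count of lower genes does not exceed the background. The other gene lower without overlap was Ccl21a, a ligand of CCR7 in lymphatic tissue with near-identical copies, at 0.00, 0.00, 0.09 and 1.27 TPM against 10.80, 28.13 and 3.12 TPM (adjusted p = 0.132 by limma). Pf4, which encodes a platelet chemokine that also binds CXCR3, stood at 29.70, 54.96, 288.52 and 300.56 TPM against 36.02, 19.32 and 15.57 TPM. Of the 11 chemokine receptor genes tested, Ccr3, Ccr8, Cx3cr1 and Cxcr6 had Vec means under 1 TPM and passed only through the Cr1l tumours. The other 7 were positive, and 2 of them, Cxcr3 and Ccr2, were higher without overlap, where over all genes 55.4% were positive and 9.29% higher without overlap. The remaining 7 of the 18 had means under 1 TPM.

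**Figure D5:**
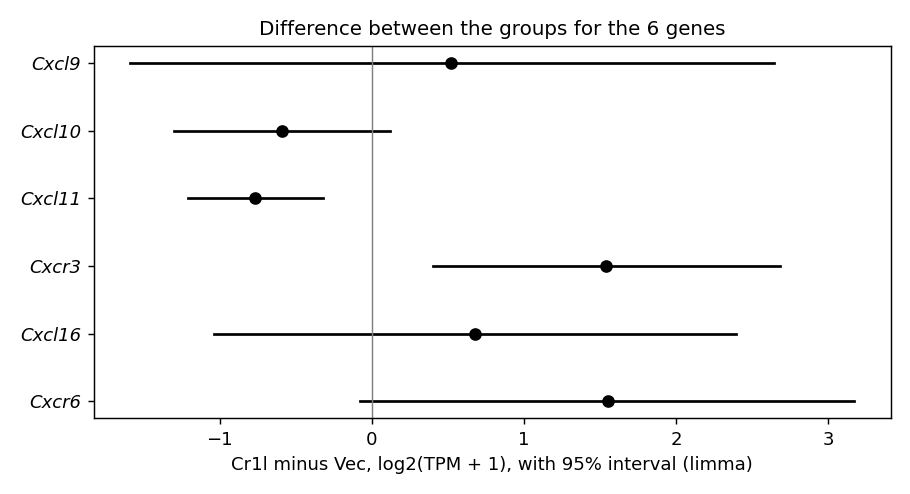
Cr1l minus Vec in log2(TPM + 1) (horizontal axis, points) with its 95% interval from limma (lines) for the 6 genes. The intervals of Cxcl11 (-1.21 to -0.32) and Cxcr3 (0.40 to 2.68) leave out 0 before adjustment, and those of the other 4 include it.

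The genes with the most similar profiles were ranked by the root-mean-square difference of centred log2(TPM + 1) values over the 7 tumours, among 12973 candidates. For Cxcr6 they were Gimap8 (0.19), Wdfy4 (0.195) and Gimap4 (0.213); the Gimap genes encode GTPases of lymphocytes. Gimap8 stood at 2.22, 1.56, 19.91 and 6.28 TPM against 0.73, 0.97 and 0.47 TPM, and so passed the filter only through the Cr1l tumours. It was picked for a profile like that of Cxcr6, so its lack of overlap is no separate result. For Cxcr3 the nearest were Col6a5 (0.203), Tor4a (0.223) and Tnfsf14 (0.227), the last encoding the T cell cytokine LIGHT. Col6a5 and Tnfsf14 were under 1 TPM in every Vec tumour and likewise passed only through the Cr1l tumours. For Cxcl16 the nearest were Ms4a7 (0.171), a macrophage gene of the list above, Il2rb (0.193), a receptor chain for interleukin 2 and interleukin 15, and Aif1 (0.215), a gene of macrophages.

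For Cxcl9 the nearest were Sox17 (0.4), Serpina3f (0.443) and Plvap (0.458). These distances are not scaled to the spread of each gene, so they are not ranked between the 6 genes. Sox17 and Plvap are genes of endothelium. Sox17 stood at 2.18, 2.69, 19.46 and 2.89 TPM against 9.05, 4.58 and 0.61 TPM, high in the same tumours, Cr1l 3 and Vec 5, as Cxcl9, whose profile it was picked to match. For Cxcl10 they were Gnrh1 (0.174), Hid1 (0.197) and Ifit3b (0.201), the last an interferon-induced gene at 7.16 to 21.5 TPM. For Cxcl11 they were Psmd8 (0.0717), a proteasome subunit, Reps1 (0.0942) and H3f3b (0.102), a histone H3 gene. All 3 were lower in every Cr1l tumour, which is no separate result, since they were picked for a profile like that of Cxcl11. Psmd8 stood at 448.63, 450.27, 299.66 and 317.00 TPM against 575.30, 584.53 and 635.19 TPM. Mlana, a melanocyte gene of the melanoma list, stood at 2065.18, 2018.05, 1466.24 and 1499.73 TPM against 2160.15, 2405.14 and 2602.07 TPM, lower in every Cr1l tumour as Cxcl11 was. It was the only one of the 7 melanoma genes without overlap; 6 were negative and 1 positive, with a median of -0.30 and none called. Among the 6 genes themselves the smallest differences were those of Cxcr3 and Cxcr6 (0.361), Cxcl10 and Cxcl11 (0.496) and Cxcl16 and Cxcr6 (0.547). The largest was that of Cxcl11 and Cxcr6 (1.61). These too are not scaled, so 2 genes of small spread can come out close without similar profiles. Cxcl10 and Cxcl11 had spreads of only 0.499 and 0.433 over the 7 tumours, about as large as the difference between them. Cxcr3 and Cxcr6 had spreads of 0.995 and 1.2.

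Melanoma markers were present in every tumour, with Pmel at 2950.41 to 7812.92 TPM. Cr1l 3 and Cr1l 4, the tumours highest for both receptors, stood apart in these and in stromal genes. The 7 melanoma genes summed to 8872 and 10162 TPM there and to 12899 to 20010 TPM in the other 5 tumours. The 6 fibroblast genes summed to 4784 and 3921 TPM there and to 111 to 891 TPM in the other 5. All 6 fibroblast genes were positive, with a median of 1.68, none called and none without overlap. The part of this makeup in the values of the 6 axis genes was not tested. Cr1l itself stood at 76.37 to 83.57 TPM in the Cr1l tumours and at 46.29 to 54.94 TPM in the Vec tumours. TPM summed to between 993520 and 996031 per tumour, and the sources used here do not state the number of reads. An extra number, unexplained in the labels, stands in the names of Vec 6 and Vec 7 but not of Vec 5. Keratinocyte markers, of which Krt5, Krt14 and Krt15 were tested, summed to 3.47 to 488 TPM in the Vec group, the highest in Vec 6, and to 0 to 40.3 TPM in the Cr1l group, where Krt5 was at 0 in 3 of 4 tumours.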

How the data were processed

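RNA was measured in 7 tumours, 4 Cr1l and 3 Vec, grouped and numbered by their descriptions; the numbers are not shared by the groups. Per the labels' protocols, poly(A) RNA was made into libraries without strand. RSEM, DESeq2 and the build mm39 are named in the submitters' processing notes; their versions, the aligner and the annotation were not stated in what was used here. The authors deposited log2(TPM + 1) values; 99.9% gave 2 decimals with the logarithm undone. TPM keeps no depth, so no counting error can be given. The authors' deposited DESeq2 table gives a mean normalized count (signal), a log2 fold change, a Wald score and a p-value per gene; the header names no numerator, which was taken to be the Cr1l group because Cr1l itself is positive there. Of its 28369 identifiers 27182 matched a symbol (GRCm38 names). The deposited repertoire table holds clone numbers.

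Genes averaging 1 TPM or more were tested with limma 3.58.1 in R 4.3.3 (group as the term, trended variance, Benjamini-Hochberg, threshold 0.05), after a trial on simulated data. Single values had the exact two-sided permutation test over 35 splits. Alternatives were the pseudocount, the filter, scaling, trend, weights and left-out tumours. The 6 genes and the 18 lists were chosen with earlier results of these data known. The naming rule takes the 6 genes, at most 4 per list by limma p, the 3 nearest profiles of each gene, and markers at 0; it names more than are printed. Art3, Fyco1 and Zmynd15, which overlap members, and Cr1l were named outside it. Sequences came from RefSeq (GRCm38.p6). Figures used matplotlib 3.10.9 in Python 3.11.15.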

Additional observations from a re-analysis of the deposited data

Results flagged for a closer look

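Of 32 values checked in the 4 Cr1l tumours, 4 had a lone tumour far from the others, by the gap to the next as a share of the range (Dixon's 95% limit); chance gives this in about 1 in 20. Cxcl9 stood at 125.58 TPM in Cr1l 3, where the next tumour had 22.98 TPM. Cxcl16 relative to Cxcl9 was 0.53 in Cr1l 4, where the next was -1.04. The endothelium list mean was 4.95 in Cr1l 3 with 3.24 next, and the keratinocyte list mean was 2.94 in Cr1l 3 with 0.09 next, both on the log2(TPM + 1) scale.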

How the results depend on the processing

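The 6 genes kept their direction and stayed short of the threshold of limma in 83 of 89 alternative fits. The other 6 turned the sign: Cxcl9 to -0.15 without Cr1l 3 and Cr1l 4 together (no filter) and to -1.36 without Vec 6 and Vec 7 together, with -0.28 to 1.46 over single tumours left out; and Cxcl16 to -0.47 and -0.21 in the same pairs of tumours. The cause was not tested. Cxcr6 had a mean under 5 TPM, so the stricter filter gave it no value. Over all limma settings the difference ran from 0.77 to 1.85 for Cxcr3, 0.43 to 2.31 for Cxcr6, -0.84 to -0.33 for Cxcl10 and -0.88 to -0.51 for Cxcl11. Of 82 alternatives for the within-tumour differences 72 kept the direction, none passed, and 10 turned. Cxcr6 relative to Cxcr3 went to -0.34 without Cr1l 3 and Cr1l 4 and to -0.45 without Vec 6 and Vec 7, with -0.18 to 0.24 over single tumours left out. Cxcl16 relative to Cxcl9 went to -0.32 without Cr1l 3 and Cr1l 4, with -0.34 to 0.57 over single tumours, and Cxcl9 relative to Cxcl10 to -1.03 without Vec 6 and Vec 7. Over all genes 2 were called, against 6 with a pseudocount of 0.1 TPM, 0 with no filter (3099 at an unadjusted p under 0.05 by limma), 1 at a mean of 5 TPM, 10 with median-of-ratios scaling, 13 with no trend, 14 with arrayWeights, 0 to 8 over single tumours left out and 0 without Cr1l 3 and Cr1l 4 with no filter (2609 at an unadjusted p under 0.05). Fits that leave Vec 5 as the lone vector tumour assume that it varies like the Cr1l tumours. No paired analysis was possible because the groups share no replicate numbers. No depth is known, so the low values of Cxcr6 carry an unknown counting error. The settings that leave out Cr1l 3 and Cr1l 4, or Vec 6 and Vec 7 for within-tumour differences, were chosen after seeing the data.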
